A study of Mus musculus with 6 samples.

Results

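The genes described here are 10 genes of the adipocyte lineage, taken by symbol from a table of read counts for 35976 genes: Pparg, Cebpa, Cebpb, Cebpd, Zfp423, Cd36, Lpl, Fabp4, Plin2 and Adipoq. All 10 were in the table, and 8 of them passed the filter on low counts and were tested among 13761 genes. The cells were chondrocytes, the matrix-forming cells of cartilage, from the hind limb articular cartilage of mouse embryos at day 18.5 (strain C57BL/6 x 129S4/SvJae). They were grown on tissue culture plastic through 16 population doublings, with doxycycline at 2 µg/ml, which induced a transgene for histone H3.3 in both groups. In the H3K9M group (replicates 1, 3 and 5) the transgene carries methionine in place of the lysine at residue 9, and the labels describe methylation of that residue as suppressed. The H3WT group (replicates 1, 2 and 4) carried an inducible wild-type H3.3 and received the same doxycycline, so it controls for the drug and for the extra H3.3. The labels give neither the promoter of the transgene nor its integration site. They do not say whether the 3 libraries of a group came from separate embryos, so the p-values measure the spread between these libraries, which may be technical in part. The study compared the transcripts of these groups after expansion, and the comparison is given here for a lineage other than cartilage.

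Adipocytes and chondrocytes both arise from mesenchymal progenitors. In the textbook sequence of adipocyte formation, C/EBPβ and C/EBPδ are induced first and switch on C/EBPα and the nuclear receptor PPARγ, which then maintain each other's expression. PPARγ, bound to DNA with a retinoid X receptor, activates genes for fatty acid uptake, lipid droplets and adipokines, among them Lpl, Cd36, Fabp4, Plin2 and Adipoq. Methylation of H3 lysine 9 marks silenced chromatin, and in preadipocytes the Pparg locus is a known target of H3K9 methyltransferases and demethylases.

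The promoters of the members are shown because expression ranged from the most abundant factor to genes at or near 0 counts, and because the C/EBP genes lay on the same side of the comparison. RefSeq promoter windows (GRCm38.p6, the assembly that mm10 names) were found for 7 of the 10 genes, in 10 windows. There was none for Cebpd, Lpl and Fabp4. Each line gives the 250 bases before the annotated start, 5′ to 3′ on the strand of the gene. Capitals mark matches, on either strand, to 4 motifs: the C/EBP half-site pattern TTNNGCAA; the CCAAT motif; the TATA box, searched as TATAAA; the GC box, searched as GGGCGG.
Cebpa, chr7:35119043-35119292, plus strand: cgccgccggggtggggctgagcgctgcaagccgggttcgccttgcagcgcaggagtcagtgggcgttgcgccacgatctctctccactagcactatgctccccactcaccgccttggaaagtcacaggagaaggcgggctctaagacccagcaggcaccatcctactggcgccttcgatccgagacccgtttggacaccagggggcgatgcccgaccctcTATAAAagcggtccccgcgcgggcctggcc
Cebpb, chr2:167688665-167688914, plus strand: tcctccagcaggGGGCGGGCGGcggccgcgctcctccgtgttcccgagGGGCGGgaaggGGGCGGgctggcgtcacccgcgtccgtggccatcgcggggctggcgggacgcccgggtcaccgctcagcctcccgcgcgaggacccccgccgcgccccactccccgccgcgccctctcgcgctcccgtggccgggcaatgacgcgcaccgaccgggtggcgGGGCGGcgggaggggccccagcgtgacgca
Pparg, upstream start, chr6:115360894-115361143, plus strand: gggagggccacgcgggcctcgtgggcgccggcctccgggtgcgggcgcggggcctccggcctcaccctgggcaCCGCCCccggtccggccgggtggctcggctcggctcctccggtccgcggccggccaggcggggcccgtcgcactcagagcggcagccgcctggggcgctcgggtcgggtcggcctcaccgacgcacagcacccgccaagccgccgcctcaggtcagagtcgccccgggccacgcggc
Pparg, downstream start, chr6:115421816-115422065, plus strand: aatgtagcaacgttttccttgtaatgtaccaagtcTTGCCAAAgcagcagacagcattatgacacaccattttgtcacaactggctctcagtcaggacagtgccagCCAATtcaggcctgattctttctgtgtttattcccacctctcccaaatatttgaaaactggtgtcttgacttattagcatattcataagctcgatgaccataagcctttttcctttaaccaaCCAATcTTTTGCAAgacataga
Plin2, chr4:86670060-86670309, minus strand: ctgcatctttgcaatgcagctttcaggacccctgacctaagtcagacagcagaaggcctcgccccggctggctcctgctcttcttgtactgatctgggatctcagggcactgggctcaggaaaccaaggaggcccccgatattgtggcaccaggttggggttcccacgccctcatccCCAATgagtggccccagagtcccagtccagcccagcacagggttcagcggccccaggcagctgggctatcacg
Adipoq, chr16:23146286-23146535, plus strand: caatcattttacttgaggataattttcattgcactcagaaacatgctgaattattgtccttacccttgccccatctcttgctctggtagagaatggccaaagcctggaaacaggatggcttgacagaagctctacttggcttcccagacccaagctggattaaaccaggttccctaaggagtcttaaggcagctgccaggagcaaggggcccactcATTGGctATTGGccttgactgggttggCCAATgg

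Of the 3 Pparg windows, 2 are printed, and they differ in base composition. The upstream one holds 38 CpG dinucleotides and 1 GGGCGG (a GC box, written CCGCCC on this strand). The downstream one, inside the gene and at the start from which the adipocyte isoform PPARγ2 is transcribed, holds 2 CpG and 2 matches to TTNNGCAA, a pattern found in 9.56% of the 32851 windows in the table. The window between them, not printed, holds 12 CpG, 1 TATA box, 1 CCAAT and 2 GC boxes. Gene counts do not separate transcripts from these starts. Cebpb had 41 CpG, which 1.09% of windows reach or exceed, and 5 GGGCGG, of which 2 overlap. Cebpa had 22 CpG and a TATAAA 30 bases before the start, a motif in 12.4% of windows. Adipoq, which like Cd36 had no reads in H3WT, had 0 CpG, shared with 7.87% of windows, and 3 CCAAT (33.8% of windows hold at least 1). The Cd36 window, not printed, had 3 CpG, 1 CCAAT and 2 GC boxes. Plin2 had 6 CpG, the median of all windows, and 1 CCAAT. The full PPARγ and retinoid X receptor element, AGGTCA repeated after 1 spacer base (DR1), was in none of the 10 windows and in 0.0335% of all, and the C/EBP palindrome TTGCGCAA, a special case of TTNNGCAA, was in none of the 10 and in 0.164%. A match is a description of these letters only.

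Libraries held 15113675 to 19606082 counts. Levels are CPM, read counts scaled to library size with TMM factors, and are listed in the order of replicates 1, 3 and 5 for H3K9M, then 1, 2 and 4 for H3WT. Differences were tested by edgeR's quasi-likelihood method, and p-values were adjusted after Benjamini and Hochberg over all 13761 genes. Across all genes, 0% passed an adjusted p of 0.05 (0 genes), and 12.2% (1677 genes) had an unadjusted p under 0.05. The smallest exact two-sided permutation p that 3 libraries against 3 allow is 0.1, so no such test was run on a single gene. The labelled cell type was checked against 14 chondrocyte markers, and all 14 were above 3 counts in every library. Their summed level was 7417 to 11643 CPM in H3K9M and 7321 to 19538 CPM in H3WT, highest in H3WT replicate 2. The log2 fold change was below 0 for 13 of the 14, against 50.4% of all genes. The groups overlapped for all 14, and 2 (14.3%) had an unadjusted p under 0.05. The 12 skeletal muscle markers summed to 28.0 to 252.9 CPM in H3K9M and 14.8 to 32 CPM in H3WT, highest in H3K9M replicates 1 and 3, and the sums of the groups overlapped. Acta1, whose groups overlapped, gave 26.2 of the 32 CPM in H3WT replicate 1. Of these markers 7 were tested. In 5 of them (Myod1, Myh3, Myl1, Des and Tnnt3) every H3K9M library, replicate 5 included, lay above every H3WT library, against 10.7% of all genes. Myod1, Myh3 and Myl1 had few or no reads in H3WT and passed the filter through H3K9M. Their separation is therefore no support for a difference. Des and Tnnt3 had reads in every H3WT library.

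None of the 8 tested adipocyte lineage genes passed the adjusted threshold, against 0% of all genes. At an unadjusted p under 0.05 there were 3 of the 8 tested genes, Cebpa and Cebpb lower and Plin2 higher in H3K9M, against 12.2% of all genes (5.77% lower and 6.42% higher). With DESeq2 this count was 6, with 0 past the adjusted threshold, where 9.62% of all genes were under that p. The DESeq2 share is over 19994 genes, without the filter on low counts. With limma-voom this count was 5, where 12.1% were, again with 0 past the adjusted threshold. It was 3 without H3WT replicate 2, the library with the highest chondrocyte markers (17.1% of all genes), and 1, Cebpa, without H3WT replicate 1 (8.78%) or without H3WT replicate 4 (9.14%). The log2 fold change was below 0 for 7 of the 8, with a median of -0.62, while 50.4% of all tested genes were below 0 and their median was -0.003. The 8 had at least 20 counts in every library, so none entered through a single group. The libraries of the groups did not overlap for 3 of the 8, Cebpa, Zfp423 and Lpl, all lower in H3K9M, against 8.68% of all genes in that direction and 19.4% in either. These separations were narrow: with library size alone as the scaling, the 2 genes that did not overlap were Cebpa and Plin2, against 19.3% of all genes.

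**Figure D1:**
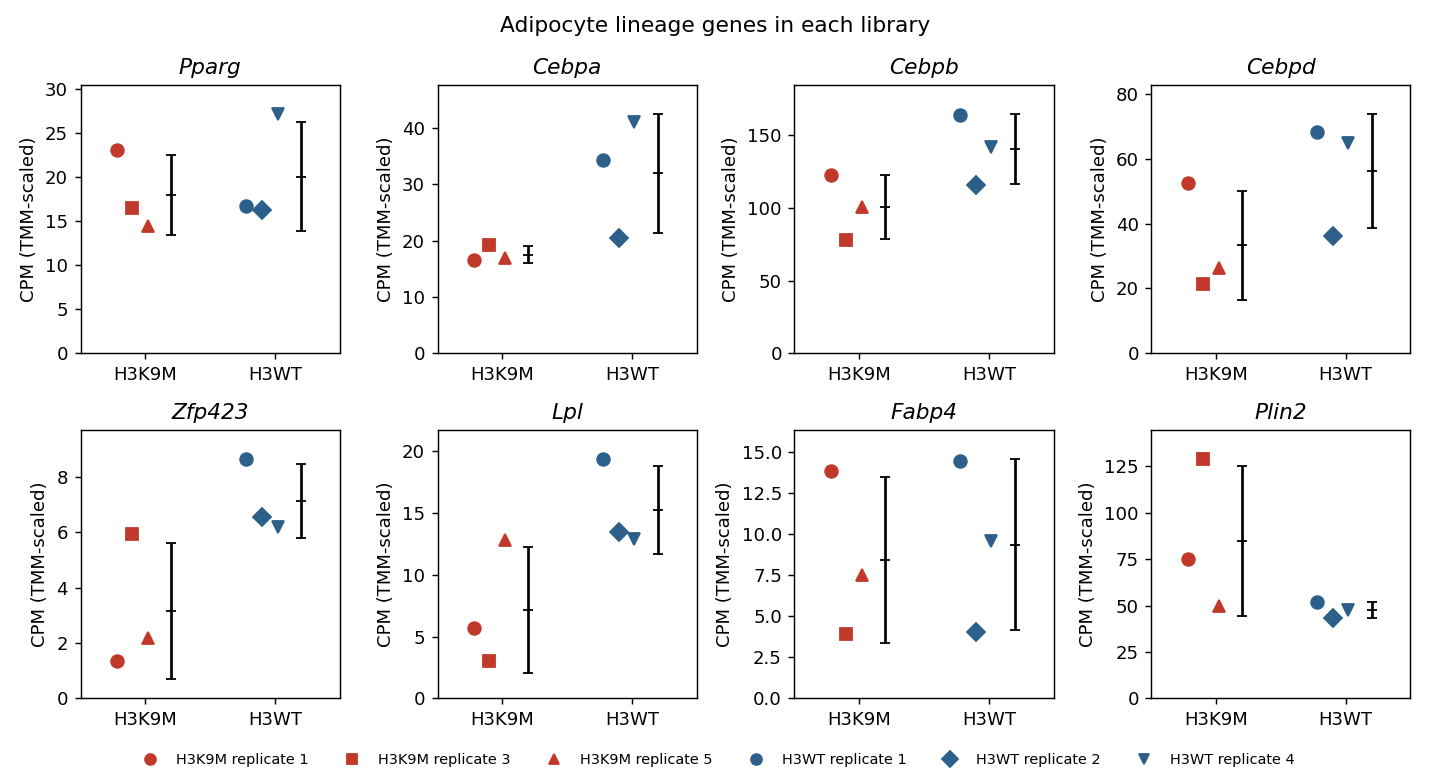
CPM (TMM-scaled, vertical axes from 0) of the 8 tested adipocyte lineage genes, 1 point per library, with the mean and SD over 3 libraries beside each group. The H3K9M libraries lie below all H3WT libraries for Cebpa, Zfp423 and Lpl, and the high Plin2 mean of H3K9M comes mainly from replicate 3 at 128.9 CPM.

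The order of the levels was read per kilobase of the principal transcript, averaged over the 6 libraries. Cebpb was highest at 80.1 CPM per kb and Plin2 next at 35.0 CPM per kb. Cebpd (11.97), Pparg (10.8), Fabp4 (9.94) and Cebpa (9.42 CPM per kb) followed and were not told apart by the spread of their libraries. Lpl had 2.72, Zfp423 1.05, Adipoq 0.173 and Cd36 0.0241 CPM per kb. With merged exon length in place of transcript length, Cebpa ranked ahead of Pparg and Fabp4, and the other places were the same. Some neighbours in this order overlapped between libraries: in H3K9M replicate 3, Plin2 (68.3 CPM per kb) lay above Cebpb (52.0 CPM per kb), and the ranges of Lpl and Zfp423 met as well. The ranges of Plin2 and Cebpd did not meet, nor did those of Cebpa and Lpl.

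Among the transcription factors, Cebpb (chr2:167688915-167690418), an early inducer that also acts in inflammatory responses, had 122.5, 78.2 and 100.5 CPM with H3K9M. With H3WT it had 163.9, 115.7 and 141.9 CPM. H3K9M replicate 1 lay above H3WT replicate 2, so the groups overlapped. The means were 100.4 ± 22.1 and 140.5 ± 24.2 CPM (SD, n = 3 each), which is -0.49 in log2 fold change (SE 0.19; edgeR adjusted p 0.38). Cebpb accounted for 57.3% to 70.0% of the summed CPM of Cebpa, Cebpb and Cebpd in the 6 libraries. It shares 312 exon bases with Tmem189 on the opposite strand in GENCODE M21. Since the strand setting of the counts is not given in the sources used here, reads there cannot be assigned. Tmem189 itself had a mean of 60.9 ± 4.88 CPM with H3K9M against 64.1 ± 5.94 with H3WT (SD, n = 3 each).

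Cebpd (chr16:15887286-15891031), induced alongside Cebpb, had 52.5, 21.3 and 26.2 CPM with H3K9M and 68.1, 36.2 and 64.7 CPM with H3WT. H3K9M replicate 1 lay above H3WT replicate 2, as for Cebpb. The log2 fold change was -0.76 (SE 0.39, edgeR adjusted p 0.468), and it was -1.24 without H3K9M replicate 1 and -0.51 without H3K9M replicate 3. Cebpd shares 562 exon bases with Spidr on the opposite strand, whose mean was 23.1 ± 4.18 CPM with H3K9M against 25.3 ± 3.87 with H3WT (SD, n = 3 each). Reads over those bases cannot be assigned either.

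Cebpa (chr7:35119293-35121928), whose product holds adipocytes in the differentiated state, had the smallest p of the group. The H3K9M libraries were close together at 16.5, 19.2 and 16.9 CPM. The H3WT libraries spread from 20.4 CPM in replicate 2 to 34.4 CPM in replicate 1 and 41.1 CPM in replicate 4. Every H3K9M library was below every H3WT library, although H3K9M replicate 3 and H3WT replicate 2 differed by little. The means were 17.5 ± 1.46 and 31.96 ± 10.6 CPM (SD, n = 3 each), a level 1.82-fold higher in H3WT (log2 fold change -0.87, SE 0.26, unadjusted p 0.0103, edgeR adjusted p 0.275). Over 13 alternative fits the adjusted p was lowest without H3WT replicate 2, at 0.0512, and highest without H3K9M replicate 1, at 0.562. Its unadjusted p was under 0.05 in 13 of the 13, more often than for any other of the 8 genes, next to 9 for Cebpb and 7 for Plin2. These fits draw on the same 6 libraries, so the tally is not independent support. Cebpa shares 51 exon bases with the antisense transcript Gm45091.

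Pparg (chr6:115360951-115490399), the receptor that commits cells to the lineage, had 23.1, 16.5 and 14.4 CPM with H3K9M and 16.8, 16.2 and 27.2 CPM with H3WT. The groups overlapped, and in each a single library was higher than the other two. The log2 fold change was -0.16 (SE 0.28, edgeR adjusted p 0.87). Leaving out H3WT replicate 4 turned it to 0.13. The tested genes with the highest Pearson's r to Pparg (log2 CPM over the 6 libraries) included Pygo1 (0.978), Tmem161a (0.972), Senp8 (0.968) and Usp13 (0.956), given as a description of libraries that share depth and culture. Of the other members, Cebpd had the highest r to Pparg at 0.65, a value that 5.18% of tested genes reach.

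Zfp423 (chr8:87661810-87959595), a zinc-finger factor of committed preadipocytes, was a low-count gene, with 20, 123 and 43 counts with H3K9M and 154, 126 and 105 with H3WT. In CPM this was 1.34, 5.94 and 2.19 against 8.65, 6.54 and 6.19. H3K9M replicate 3 came within a small margin of the H3WT libraries and replicates 1 and 5 were far below them. The log2 fold change was -1.16 (SE 0.55, edgeR adjusted p 0.444), a level 2.24-fold higher in H3WT. Without H3K9M replicate 3 it was -1.99 (adjusted p 0.279), and over all alternatives the adjusted p ran from there to 0.704. With library size alone as the scaling the groups overlapped.

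Of the genes that act on fatty acids, Lpl (chr8:68880491-68907448), the lipase that releases fatty acids from lipoproteins, had 5.69, 2.996 and 12.8 CPM with H3K9M. It had 19.4, 13.4 and 12.9 CPM with H3WT. H3K9M replicate 5 almost reached H3WT replicate 4, and the other H3K9M libraries were under 6 CPM. The means were 7.17 ± 5.07 and 15.2 ± 3.59 CPM (SD, n = 3 each), which is -1.09 in log2 fold change (SE 0.50; edgeR adjusted p 0.43). It was -1.81 without H3K9M replicate 5 and -0.70 without H3K9M replicate 3, with adjusted p from 0.286 to 0.707 over the alternatives.

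Cd36 (chr5:17781690-17888801), a fatty acid translocase of adipocytes, macrophages, muscle and endothelium, had 2, 0 and 7 counts in the H3K9M libraries and 0 in the 3 H3WT libraries. With a floor of 3 counts over the H3WT group, the observed H3K9M level was 2.94 times that floor. That ratio rests on H3K9M replicate 5, since the other H3K9M libraries held 2 counts together. It allows for counting error in H3WT but not in H3K9M, so it is not a lower bound on a difference. The gene was too low to be tested.

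Fabp4 (chr3:10204088-10208576), the fatty acid carrier of the adipocyte cytoplasm, varied more between libraries than between groups. It had 13.9, 3.91 and 7.5 CPM with H3K9M and 14.5, 4.05 and 9.60 CPM with H3WT. The lowest library of each group, H3K9M replicate 3 and H3WT replicate 2, were nearly equal, and so were the highest. The log2 fold change was -0.16 (SE 0.57, edgeR adjusted p 0.942), and it was 0.20 without H3K9M replicate 3 and 0.30 without H3WT replicate 1. Its paralog Fabp5, an epidermal-type carrier, had 30.6, 3.09 and 13.8 CPM against 33.9, 7.16 and 19.9 CPM in the same order, with the same libraries lowest.

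**Figure D2:**
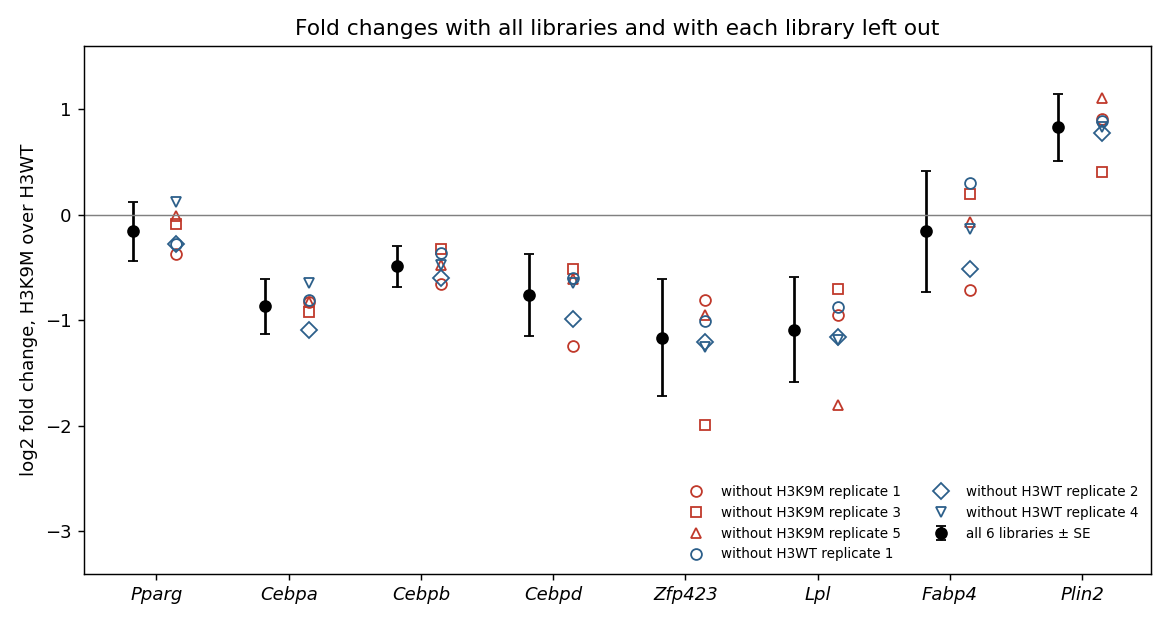
Log2 fold change of H3K9M over H3WT (vertical axis) for the 8 tested genes, as filled points with the SE for all 6 libraries and open symbols for fits without 1 library. Pparg reached 0.13 and Fabp4 0.30 above 0 in such fits, while the 3 C/EBP genes, Zfp423 and Lpl were below 0 and Plin2 above 0 in each of the 6.

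Plin2 (chr4:86648386-86670060), a coat protein of lipid droplets found in many cell types, was the 1 tested gene of the group with a higher mean in H3K9M. It had 75.0, 128.9 and 49.9 CPM with H3K9M and 51.6, 43.3 and 47.8 CPM with H3WT. The H3WT libraries were close together, H3K9M replicates 1 and 3 lay above them, and replicate 5 lay among them. The means were 84.6 ± 40.4 and 47.6 ± 4.19 CPM (SD, n = 3 each), a level 1.78-fold higher in H3K9M (log2 fold change 0.83, SE 0.32, unadjusted p 0.0332, edgeR adjusted p 0.371). Without H3K9M replicate 3 the log2 fold change was 0.40 (edgeR adjusted p 0.573), and over all alternatives the adjusted p lay between 0.153 and 0.586. Plin2 shares 96.1% identity over 259 bases with Gm12551, so a small part of its count is uncertain.

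The libraries with high Plin2 also stood out in other genes. Angptl4, a secreted inhibitor of lipoprotein lipase and a target of PPAR receptors and of hypoxia, had 57.9, 108.1 and 22.9 CPM with H3K9M, against 38.1, 22.4 and 30.6 with H3WT, a log2 difference of 1.05 (SE 0.54; edgeR adjusted p 0.48). The summed skeletal muscle markers were 179.8, 252.9 and 28.0 CPM in the same H3K9M libraries and 32, 14.8 and 27.7 CPM with H3WT. The macrophage markers summed to 10.0 to 17.6 CPM in H3K9M and 5.42 to 8.20 CPM in H3WT, highest in H3K9M replicate 3. Of that highest sum, Cd68 alone gave 12.8 CPM, and Csf1r, Lyz2 and Mrc1 were not highest in that library. Of the 12 markers 6 were at 0 in every library, Ptprc and Adgre1 among them. The part of other cells in the Plin2 level was not tested. In such bulk libraries, fewer cells of a type and less RNA per cell cannot be told apart.

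**Figure D3:**
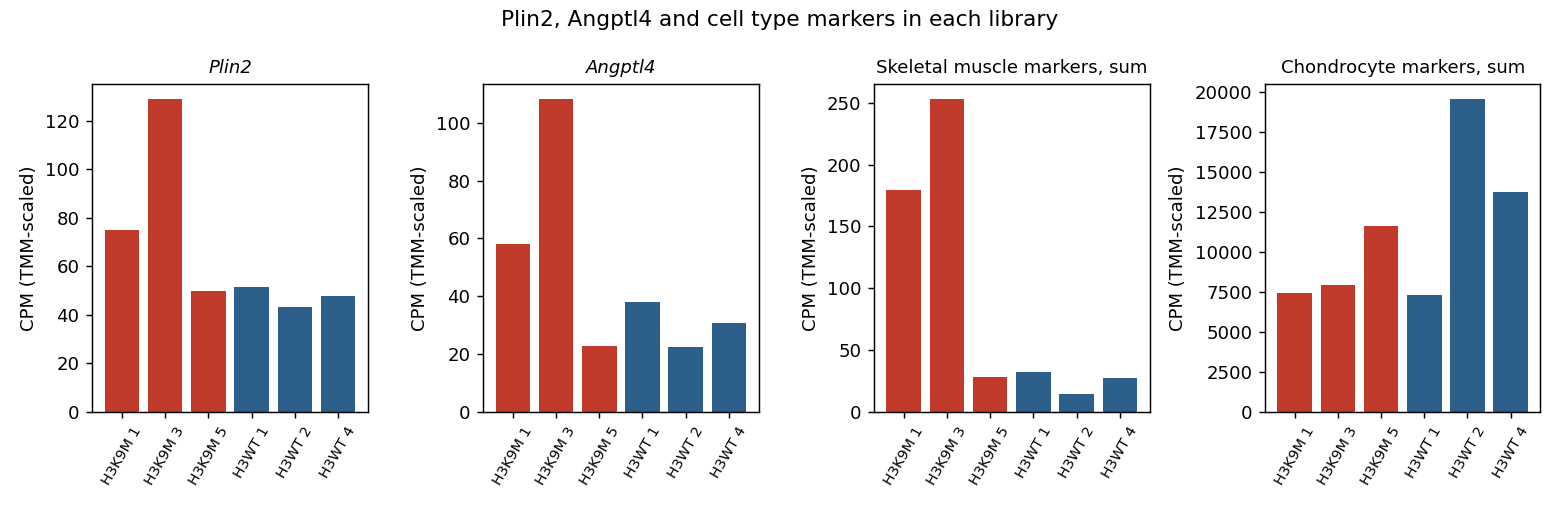
CPM (TMM-scaled, bars from 0) of Plin2, Angptl4, the 12 skeletal muscle markers summed and the 14 chondrocyte markers summed, 1 bar per library, H3K9M in red and H3WT in blue. H3K9M replicate 3 is highest and replicate 1 second in the first 3 panels, while H3WT replicate 2 is highest for the chondrocyte markers at 19538 CPM.

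Adipoq (chr16:23146536-23158028), the adipokine that defines mature adipocytes, had 17, 0 and 4 counts in the H3K9M libraries and 0 counts in the 3 H3WT libraries. A count of 0 over that group allows up to 0.0555 CPM. Against a floor of 3 counts over the H3WT group, the observed H3K9M level was 6.85 times that floor. It was 1.79 times the floor without H3K9M replicate 1, which held 17 of the 21 reads. The other 4 reads were all in replicate 5. These ratios allow for counting error in H3WT but not in H3K9M, so they are not lower bounds on a difference. The gene was too low to be tested. Some other markers of mature adipocytes were as low. Lep and Retn had 0 counts in all 6 libraries, Plin1 had 14 counts in H3K9M replicate 5 and 0 elsewhere, and Cidec had 0 to 9 counts. Others were higher: Lipe had 50 to 164 counts, Gpd1 15 to 74, and Cfd reached 32 counts in H3K9M replicate 5. The 10 markers of that type summed to 6.36 to 12.1 CPM in H3K9M and 5.66 to 10.2 CPM in H3WT. Of them, 2 were above 3 counts in every library, Lipe and Gpd1, which supplied most of each sum. The endothelial markers, another possible source of Cd36 and Fabp4, summed to 3.14 to 3.78 CPM in H3K9M and 3.53 to 9.19 CPM in H3WT, with 4 of 10 at 0 in every library, Cdh5 among them.

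The other genes of the adipocyte programme were taken as 9 lists with 139 genes, of which 109 were tested. None passed the test with edgeR, 13 (11.9%) had an unadjusted p under 0.05, close to the 12.2% of all genes, and 2 of these were higher and 11 lower in H3K9M. The median log2 fold change was -0.19, against -0.003 over all genes. With DESeq2, 3 of these genes passed, Tmem26, Ppara and Prdm16, where 2.38% of all genes with an adjusted p did. Ppara entered both this count and the 13 only through its H3WT reads.

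Of 22 tested activators of adipogenesis, 4 (18.2%) had an unadjusted p under 0.05, all lower in H3K9M. Of all genes 12.2% were under that p, 5.77% of them lower in H3K9M as a share of all. Rxra, the DNA-binding partner of PPARγ, had 124.5, 118.1 and 137.4 CPM with H3K9M and 162.6, 172.5 and 173.8 CPM with H3WT, with no overlap (log2 fold change -0.42, SE 0.11, edgeR adjusted p 0.239). Prdm16, a factor of brown fat with H3K9 methyltransferase activity, had -0.67 in log2 fold change (SE 0.14), and Srebf1, a regulator of lipid synthesis, had -0.33 (SE 0.12), both without overlap and at edgeR adjusted p of 0.194 and 0.337. The remaining one, Klf15, named because it completes the count, had overlapping groups at 0.134, 0.435 and 2.70 CPM with H3K9M and 8.87, 1.66 and 8.48 CPM with H3WT. Of 16 tested inhibitors of adipogenesis, 2 (12.5%) were lower at an unadjusted p under 0.05, Klf3 at -0.57 and Tcf7l2 at -0.65, and none was higher. Gata2, which represses Pparg in preadipocytes, had -0.67 with overlapping groups, and Dlk1, the preadipocyte factor Pref-1, ranged over 3.68 to 21.1 CPM with H3K9M and 7.89 to 14.1 with H3WT. The medians of activators and inhibitors were alike, at -0.22 and -0.25.

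Among 14 tested genes of lipid uptake and binding, 3 (21.4%) had an unadjusted p under 0.05, against 12.2% of all genes. Slc27a3 (log2 fold change -0.61) and Acsl1 (-0.50) were lower and the caveolar coat gene Cav1 (0.55) higher. The 12 droplet and triglyceride genes had a median of -0.01 and none at that p. In 2 of the 12 the groups did not overlap, against 19.4% of all genes. Plin4, another droplet coat, was lower at -0.65, the opposite sign to Plin2, and Hilpda was higher at 0.40. Of the 7 lipolysis genes 6 were above 0, while 50.4% of all genes were below 0, and 1 (14.3%) had an unadjusted p under 0.05. This was Pnpla2, the first lipase of triglyceride breakdown, which had 32.1, 28.0 and 23.0 CPM in H3K9M against 20.5, 16.1 and 23.0 with H3WT, where the lowest H3K9M and highest H3WT library differed by less than 0.1 CPM (log2 fold change 0.48, SE 0.21, edgeR adjusted p 0.41). Its coactivator Abhd5 had 0.32. All 11 tested genes of the fatty acid synthesis list were below 0, against 50.4% of all genes. They ran from -0.60 for Insig1, with Scd1 next at -0.42, to -0.07 for Me1. None had an unadjusted p under 0.05, and Fasn had -0.41 (SE 0.29). The 9 adipokine and receptor genes had a median of 0.001 and none at that p.

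Of 11 brown and beige fat genes, 3 passed the filter. Tmem26, a surface marker of beige adipocytes, had 4.02, 2.66 and 8.11 CPM with H3K9M and 45.7, 17.0 and 57.1 CPM with H3WT. No library overlapped, and the log2 fold change was -3.01 (SE 0.58, edgeR adjusted p 0.192); it passed with DESeq2 (adjusted p 1.24e-07) and without H3WT replicate 2 (0.0374). Ppara, a relative of Pparg that drives fatty acid oxidation, had 0, 1 and 0 counts in H3K9M and 19, 30 and 15 in H3WT. It passed the filter through H3WT alone, so its p-value is no support for a difference. Cpt1b, a mitochondrial importer of fatty acids, had -0.78 in log2 fold change (SE 0.60) with overlapping groups. Ucp1, which defines brown fat, had 1 count in 1 library. Of 15 tested progenitor genes, 1 (6.67%) had an unadjusted p under 0.05, against 12.2% of all genes. This was the BMP receptor gene Bmpr1a at -0.35, while Cd34 had 1.29 and Icam1 -1.47 with overlapping groups.

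**Figure D4:**
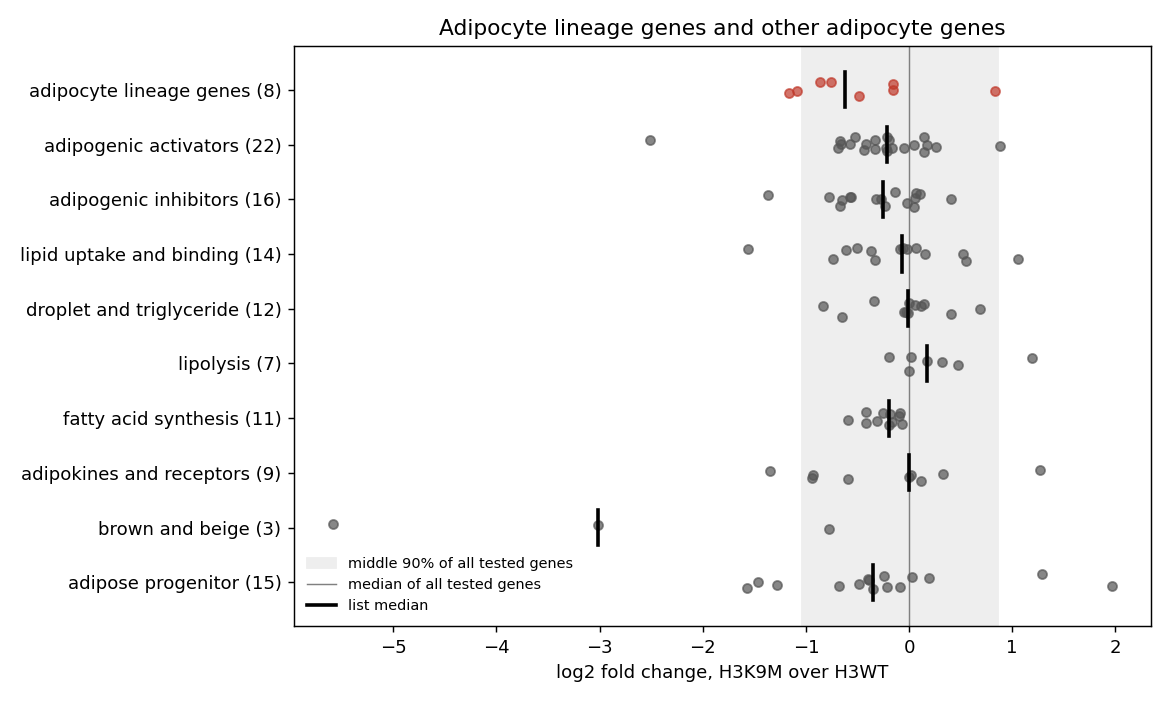
Log2 fold change of H3K9M over H3WT (horizontal axis) of each tested gene, for the 8 adipocyte lineage genes and 9 lists of other adipocyte genes, with the number tested in parentheses and a bar at each median; the grey band holds the middle 90% of all tested genes. The lineage genes have a median of -0.62 and the lists of activators and inhibitors -0.22 and -0.25, and the brown and beige list rests on 3 genes.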

How the data were processed

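Per the labels, sequencing libraries of polyadenylated RNA were prepared with a Tecan Universal Plus kit. The authors deposited raw read counts per gene, 1 column for each of 6 libraries. HISAT2, featureCounts, DESeq2 and the build mm10 are named in the submitters' processing notes. Versions, annotation and strand setting are not given in the sources used here. Columns were matched to samples by title.

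The analysis used edgeR 4.0.16 under R 4.3.3: filterByExpr, TMM scaling, robust glmQLFit and glmQLFTest with genotype as the only term, over all 6 libraries. The SE is the log2 fold change divided by the square root of F. DESeq2 1.42.0 and limma 3.58.1 (voom) were alternatives, with 2 other scalings, 2 other filters, no robust estimation and each library left out. Computations were tested on simulated data. Positions, transcript lengths and overlaps came from GENCODE M21 (GRCm38) and similar transcripts from blastn 2.17.0 (at least 90% identity over 200 bases).

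The members and lists were chosen with earlier results of these data known. Named genes were the 10 members, up to 3 genes of each list by smallest p, 8 others fixed by symbol and the 5 with the highest r to Pparg, of which 1 is not reported here. Of the 139 listed genes 137 were in the table. The floor for a library or group was 3 counts and covers counting error only.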

Additional observations from a re-analysis of the deposited data

How the results depend on the processing

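No paired analysis was possible because the groups share only replicate number 1. The count of adipocyte lineage genes past the adjusted threshold was 0 in the reported fit and in each of the 13 alternatives. At an unadjusted p under 0.05 it was 3, and it was 6 with DESeq2, 5 with limma-voom and 1 to 4 when a library was left out. The shares of all genes were 12.2%, 9.62%, 12.1% and 8.48% to 17.1%. The DESeq2 share is over 19994 genes, without the filter on low counts. The count at that p was 1, Cebpa, without H3WT replicate 1 or without H3WT replicate 4. The count of genes whose groups did not overlap was 3 with TMM and DESeq2's size factors and 2 with library size alone. Over all genes, 0 passed in the reported fit, 365 with DESeq2, 36 without the filter on low counts, and 0 to 91 when a library was left out, with 91 without H3WT replicate 2 and 2 without H3K9M replicate 3. Of the other adipocyte genes 3 passed with DESeq2 and 0 to 1 when a library was left out. The cause of these differences was not tested. The sign of 2 of the 8 log2 fold changes turned. That of Pparg was between -0.38 and 0.13 over the fits without 1 library, positive without H3WT replicate 4. That of Fabp4 was between -0.71 and 0.30, positive without H3K9M replicate 3 (0.20) or H3WT replicate 1 (0.30). The other 6 kept their sign in all 13 alternatives. Adipoq and Cd36, at 21 and 9 reads in all, were limited by depth.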

Other observations

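H3K9M replicate 3 and H3WT replicate 2, which earlier results of these data had set apart, were compared with the other libraries of their groups. Cebpb, Cebpd and Fabp4 were lowest within each group in H3K9M replicate 3 and in H3WT replicate 2, as were 27 of the 109 other adipocyte genes tested (24.8%) and 17.5% of all genes. In 0 of the 8 lineage genes and in 16% of all genes these 2 libraries were the highest of their groups. So they were in 18 of the 109 other adipocyte genes (16.5%). Bmp4, a signal that commits mesenchymal cells to the adipocyte lineage, had 23.0 CPM in H3K9M replicate 3 and 51.5 CPM in H3WT replicate 2, against 106.3 to 245.3 CPM in the other 4 libraries. F3, the tissue factor gene that marks a regulatory population of adipose stroma, had 14.0 and 31.2 CPM in these 2 libraries and 50.4 to 242.6 CPM in the others. Klf2, an inhibitor of Pparg, had 7.59 CPM in H3K9M replicate 3 and 21.6 CPM in H3WT replicate 2, against 22.0 to 91.5 CPM in the others, so H3WT replicate 2 lay just under H3K9M replicate 5. Other progenitor genes went the other way and were highest of each group in these libraries. Pdgfra had 236.3 CPM in H3K9M replicate 3 and 242.8 CPM in H3WT replicate 2, and Ly6a had 207.9 and 215.6 CPM. Because the 2 libraries were picked from these same data, the counts are a description and no support for a shared difference. Bmp4, F3, Klf2, Pdgfra and Ly6a were chosen after their values were seen.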
